A study of Mus musculus with 15 samples.

Results

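The mitosis genes described here are 47 genes whose products assemble the spindle, attach and separate chromosomes and divide the cell. They were chosen by name, and each was read from the probe set annotated to that gene alone, the one with the highest mean over all 15 arrays where there were several. All 47 were among the 18193 genes with such a probe set, and all 47 passed the filter on low values that left 13703 genes for testing. The members were chosen by name with earlier results of these data known.

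Mitosis begins when CDK1 with its cyclins, raised by the transcription factor FOXM1 and its partners, phosphorylates a wide range of proteins. Chromosomes condense and attach through kinetochores to the spindle, and the spindle checkpoint holds back the anaphase-promoting complex (APC/C, the ubiquitin ligase that triggers chromosome separation) until every chromosome is attached. Most of these genes are transcribed late in the cell cycle, and macrophage precursors grown with M-CSF divide while they mature.

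Macrophages were grown from mouse bone marrow for 7 days with M-CSF, the growth factor of this lineage, and total RNA of 15 samples was hybridised to 1 one-colour array each. The 5 groups of 3 were M0 (not treated), M1 (bacterial lipopolysaccharide, LPS, with interferon-gamma), M2 (IL-4 with IL-13), M2 with nutlin-3a, which frees p53 from its inhibitor MDM2, and M2 with 10058F4, a MYC inhibitor that blocks its pairing with MAX. All groups shared the M-CSF culture, and the agents were given to M2 cells only. No source used here states the mouse strain, age or sex, nor at what dose, for how long or in which vehicle an agent was given. Samples are called biological replicates in the labels without a mention of separate animals or cultures. The p-values therefore measure only how far these samples differ among themselves, and that spread may be technical.

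Promoters of the members were read from RefSeq (GRCm38.p6) because so many of the genes moved together. The table held 42 windows of 39 of the 47 members, each from 250 bases before to 50 after the transcription start; Cep55, Ect2 and Prc1 had more than 1, overlapping. Aurkb, Incenp, Foxm1, Pbk, Dlgap5, Ccna2, Kif20a and Tpx2 were not matched. The best known element of mitotic gene promoters, the cell cycle homology region, has the letters TTTGAA and binds complexes built on the MuvB core, and the CCAAT box binds NF-Y. On either strand, TTTGAA stood in 33 of 42 windows (78.6%), against 17.9% of all 32851 windows and 12.2% of the 14036 windows of tested genes. CCAAT stood in 30 of 42 (71.4%), against 37.4% and 37.3%. Both were present in 27 of 42 (64.3%), against 7.0% of all windows and 4.8% of those of tested genes, and 2 or more CCAAT boxes in 21 of 42 (50%), against 11.7% and 13.5%. These counts describe letters, not binding, and the members share the role they were chosen for.

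Other motifs stood in fewer of the members' windows. The variant TTTAAA stood in 9 of 42 windows (21.4%), against 13.2% of all and 9.1% of those of tested genes. The E-box letters CACGTG, the kind MYC binds, stood in 2 of 42 (4.8%), against 7.2% and 9.4%. The E2F letters TTTGGCGC stood in 1 of 42 (2.4%), against 0.5% and 0.9%. The other E2F form, TTTCCCGC, also stood in 1 of 42 (2.4%), against 1.1% and 1.8%. None of the 6 motifs contains another.

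The 150 bases before the start of 6 members that hold both motifs there are shown, 5 of them lower with M1 and with nutlin-3a and Mki67 lower with M1 only. The positions are chr4:118437344-118437493 on the minus strand for Cdc20, chr2:164769779-164769928 on the plus strand for Ube2c, chr10:69352913-69353062 on the minus strand for Cdk1, chr11:99024190-99024339 on the minus strand for Top2a, chr19:37376232-37376381 on the plus strand for Kif11 and chr7:135716380-135716529 on the minus strand for Mki67 (GRCm38.p6). Each sequence runs 5′ to 3′ on the gene's own strand and ends at the base before the start. Capitals mark TTTGAA and CCAAT, or the reverse complements TTCAAA and ATTGG where the motif lies on the other strand.
Cdc20: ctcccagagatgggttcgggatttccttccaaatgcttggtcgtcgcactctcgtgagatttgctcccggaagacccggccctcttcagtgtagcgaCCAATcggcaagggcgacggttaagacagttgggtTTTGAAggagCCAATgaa
Ube2c: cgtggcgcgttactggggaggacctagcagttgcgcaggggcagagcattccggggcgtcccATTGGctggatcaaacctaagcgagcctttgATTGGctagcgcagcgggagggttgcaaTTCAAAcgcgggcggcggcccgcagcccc
Cdk1: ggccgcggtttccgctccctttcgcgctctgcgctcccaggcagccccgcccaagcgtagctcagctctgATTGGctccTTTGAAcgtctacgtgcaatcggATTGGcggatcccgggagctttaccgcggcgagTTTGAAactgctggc
Top2a: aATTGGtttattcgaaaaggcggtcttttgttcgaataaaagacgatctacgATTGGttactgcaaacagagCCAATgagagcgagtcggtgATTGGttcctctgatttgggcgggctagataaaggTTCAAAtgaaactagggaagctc
Kif11: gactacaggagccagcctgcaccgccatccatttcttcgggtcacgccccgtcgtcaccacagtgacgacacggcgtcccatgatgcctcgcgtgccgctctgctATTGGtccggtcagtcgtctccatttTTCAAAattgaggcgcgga
Mki67: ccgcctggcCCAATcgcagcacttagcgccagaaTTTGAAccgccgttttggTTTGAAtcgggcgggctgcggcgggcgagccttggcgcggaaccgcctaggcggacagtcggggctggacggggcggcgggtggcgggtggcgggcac

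In Cdc20 the TTTGAA element lay between the CCAAT boxes, close to the start. In Ube2c, Top2a and Kif11 the marked CCAAT boxes all lay upstream of it, and in Cdk1 they alternated with its copies. Mki67 had its TTTGAA copies farther from the start than the others shown, with its CCAAT box upstream of both.

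Over the 47 genes, expression was lowest in M1 cells and next lowest with nutlin-3a. The median of the members' deviations from their own means over 15 arrays, in log2 units where 1 is a 2-fold difference, was -1.43, -1.50 and -1.53 on the M1 arrays. It was -0.59, -0.25 and -0.62 with nutlin-3a. In M2 it was 0.47, 1.02 and 0.49, and it was 0.48, 0.97 and 0.51 with 10058F4 and 0.02, 1.34 and 0.85 in M0. All M1 arrays and all nutlin-3a arrays lay below every array of the other 3 groups. M1 had the lowest group mean in 41 of 47 members and nutlin-3a the second lowest in 40 and the lowest in 5. The order of group means was not counted over all tested genes, of which 39.1% were called lower in M1 than in M0 and 36.5% lower than in M2. In bulk RNA, fewer dividing cells and less RNA of these genes per cell cannot be told apart.

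**Figure D1:**
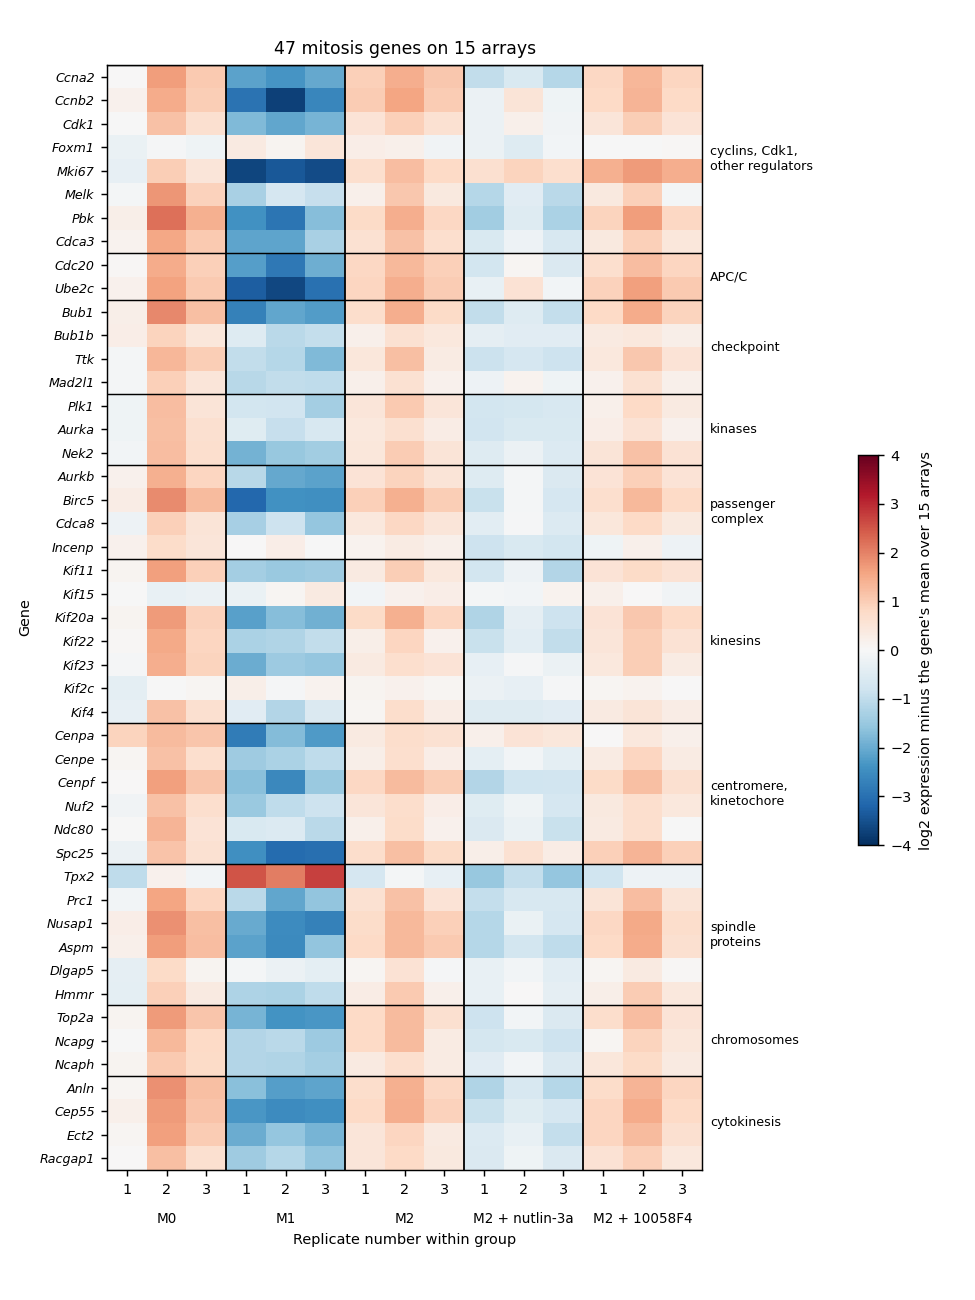
Each square is the log2 expression of a gene (rows, grouped by role) on an array (columns, by group and replicate number), minus that gene's mean over 15 arrays; blue is lower and red higher. The M1 columns are blue for most rows, the nutlin-3a columns paler blue, and Tpx2 is the row most clearly red in M1.

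**Figure D2:**
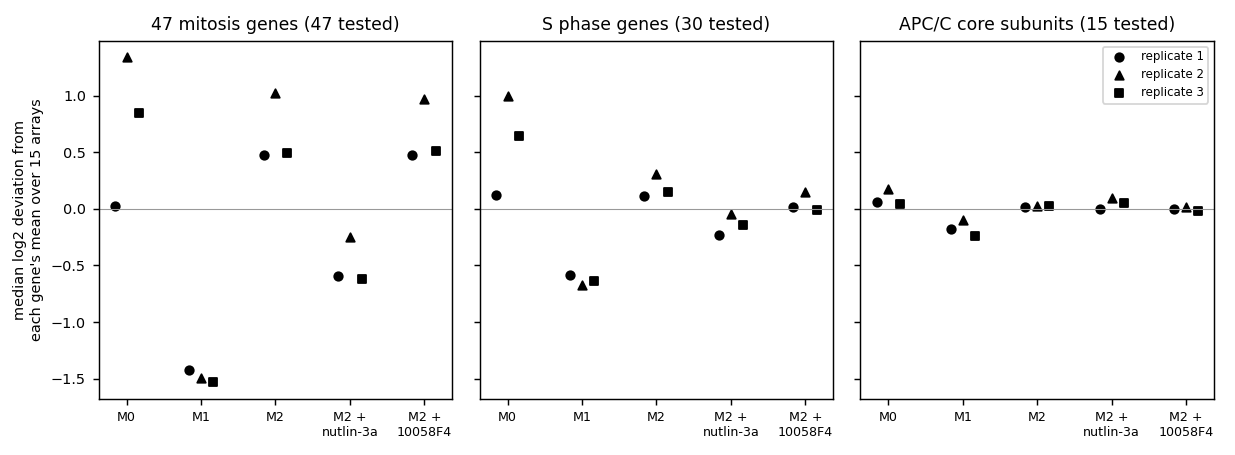
Each point is an array, and its height is the median over a list of the log2 deviation from each gene's mean over 15 arrays. The panels show the 47 members (left), 30 tested genes of S phase, the step before mitosis (middle), and 15 APC/C genes (right). These 15 are core subunits and the activator Fzr1. In the left panel M1 arrays sit between -1.53 and -1.43 and nutlin-3a arrays between -0.62 and -0.25, below all arrays of M0, M2 and 10058F4.

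The spread within groups was itself shared by the members. Replicate 2 was the highest array in 45 of 47 members in M0, in 45 in M2 and in 45 with 10058F4, in 38 with nutlin-3a, but in 14 in M1. M0 replicate 1 was the lowest of its group in 46 of 47. The median SD over 3 arrays was 0.70 in M0 and between 0.23 and 0.29 in the other groups. Over all 1081 pairs of members the median correlation was 0.921 across 15 arrays and 0.818 after group means were removed, so the members are not independent of each other and their counts are not counts of separate events. The pairs share arrays and normalization.

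Marker genes of macrophages and of other cell types, and genes tied to the agents, were read on the same arrays. All 9 macrophage markers with a probe set lay above the arrays' 40th percentile on every array, with summed linear levels of 49345 to 50588 in M1 and 53594 to 58513 elsewhere. Of these 9, 3 were lower and 4 higher in M1 than M0, beside 39.1% and 33.6% of all tested genes. The progenitor and promyelocyte markers Kit, Ctsg and Myb lay below that percentile on every array, and the list of 10 summed to 251 to 266 in M0, 279 to 315 in M1, 278 to 312 in M2, 259 to 287 with nutlin-3a and 273 to 287 with 10058F4. On all 3 arrays of a group 5 of the 10 lay above the percentile, and 6 in M1. Of 6 tested, 5 were higher in M1 and 2 in M2 than in M0 (33.6% and 12.7% of all tested genes). With each agent 1 of 6 was lower than in M2, beside 5.85% of all tested genes with nutlin-3a and 10.2% with 10058F4. The 7 dendritic cell markers with a probe set summed to 1137 to 1276 in M0, 1578 to 2022 in M1, 1735 to 1969 in M2, 1205 to 1392 with nutlin-3a and 1046 to 1140 with 10058F4. Ccr7 and Xcr1 of that list lay below the percentile outside M1. Of 7 tested, 4 were higher in M1 and 1, Batf3, in M2 than in M0 (33.6% and 12.7% of all tested genes). Irf8 was lower in M2 than in M0 (18.4% of all tested genes). Batf3 read 7.12, 6.90 and 6.96 in M0 and 9.95, 9.68 and 10.06 in M2. With nutlin-3a 1 of 7 was lower than in M2 and with 10058F4 2 of 7 were (5.85% and 10.2% of all tested genes). Of 6 T and NK cell markers with a probe set, Cd3g, Cd2 and Gzma lay below the percentile on every array. The list summed to 154 to 159 in M1 and 112 to 137 elsewhere, with 3 of 3 tested markers higher in M1 than M0 (33.6% of all tested genes). The 5 B cell markers summed to 127 to 142 in M2, 129 to 140 in M1 and 102 to 117 elsewhere. Of 3 tested, 2 were lower with nutlin-3a and 2 with 10058F4 than in M2 (5.85% and 10.2% of all tested genes). Against M0, 2 of 3 were higher in M1 and 2 of 3 in M2 (33.6% and 12.7% of all tested genes). The 6 neutrophil markers summed to 430 to 505 in M0 and M1 and 276 to 340 in the M2 groups, with Cxcr2 below the percentile throughout. The 6 mast cell and basophil markers summed to 89.2 to 129 over all arrays, the 4 erythroid ones to 143 to 203 and the 8 stromal ones to 267 to 622. The part of these lists in the results was not tested. The p53 targets Cdkn1a and Mdm2 had log2 differences of 1.7 (SE 0.06) and 1.99 (SE 0.09) for nutlin-3a minus M2, and 2.27 (SE 0.06) and 1.84 (SE 0.09) for M1 minus M0, so a high level of both was shared by the nutlin-3a and M1 arrays. Cdkn1a was also higher in M2 (mean 10.75) than in M0 (mean 9.39), a comparison that called no member. With 10058F4 Cdkn1a and Mdm2 had -0.75 (SE 0.06), called lower, and 0.24 (SE 0.09), not called. Myc itself had -0.96 (SE 0.15) with nutlin-3a and -0.77 (SE 0.15) in M1 minus M0, both called lower. Its mean was 7.47 in M2 and 7.47 with 10058F4, and its RNA level is no check of an agent that acts on the MYC protein. The part of Cdkn1a, Mdm2 and Myc in the results was not tested. The 3' minus 5' difference of beta-actin control probe sets was 0.351 ± 0.0543 (SD, n = 3) in M0, 0.178 ± 0.0444 in M1 and 0.382 ± 0.0302 in M2. It was 0.489 ± 0.0250 with 10058F4 and 0.453 ± 0.0346 with nutlin-3a. The Gapdh probe sets had -0.162 ± 0.0347 in M1, and the means of the 4 remaining groups ran from -0.283 to -0.272, so M1 stood apart downward in beta-actin and upward in Gapdh. The part of either in the results was not tested.

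M1 against M0 asks what LPS with interferon-gamma does. Of 47 members 42 were lower in M1, 2 were higher (Tpx2 and Foxm1) and 3 were not called (Kif15, Kif2c and Dlgap5) at a limma adjusted p under 0.05, with 39.1% of the 13703 tested genes lower and 33.6% higher. The median difference was -2.33, which is 5.02-fold, beside -0.005 over all tested genes. A fall of at least 2-fold was seen in 41 members, of at least 4-fold in 27 and of at least 8-fold in 15. Leaving out any 1 array of these groups left 43 to 45 members called. Centring arrays on their median moved the median of all genes to 0.32 and gave 3505 genes lower and 7619 higher, against 5362 and 4601. Of the members it gave 41 lower and 4 higher, Kif15 and Kif2c joining Tpx2 and Foxm1. With the mean of all probe sets of a gene the members' median was -1.60. In 12 members every M1 array lay below the arrays' 40th percentile, and in 9 more some did, so their differences are not exact sizes: the 12 are Ube2c, Bub1, Ttk, Nek2, Birc5, Kif11, Kif20a, Cenpf, Aspm, Ncapg, Cep55 and Ect2, and the 9 are Ccnb2, Melk, Pbk, Cdc20, Aurkb, Nuf2, Spc25, Nusap1 and Anln. M1 arrays also stood apart in the 3' minus 5' differences given above, downward for beta-actin and upward for Gapdh.

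Nutlin-3a against M2 asks what freeing p53 does to M2 cells. Of 47 members 36 were lower with nutlin-3a, none was higher and 11 were not called, with 5.85% of tested genes lower and 9.56% higher (802 and 1310 genes, and 1320 and 926 after median centring). All 47 differences were below zero, and the median was -1.10, which is 2.14-fold, beside 0.01 over all tested genes. A fall of at least 2-fold was seen in 27 members and of at least 4-fold in 3. Ccna2 and Pbk had the lowest differences of all 13703 tested genes, and 8 of the 10 lowest, 13 of the 20 lowest and 32 of the 100 lowest were members. In M1 against M0 no member was among the 20 lowest and 10 were among the 100 lowest. The members were chosen with earlier results of these data known, so these ranks are a description and no test of the list. The number called depended on single arrays: it was 20 without M2 replicate 2, 22 without nutlin-3a replicate 1 and 24 to 35 without any other array of these groups. Called lower under all alternatives that gave a value were 19: Ccna2, Pbk, Cdc20, Bub1, Bub1b, Ttk, Plk1, Aurka, Birc5, Incenp, Kif20a, Cenpf, Prc1, Nusap1, Aspm, Ncapg, Ncaph, Anln and Cep55. With the replicate number as a block it was 39, with Cenpe, Hmmr and Kif23 added (adjusted p = 0.0106, 0.0318 and 0.0228).

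10058F4 against M2 asks what a MYC inhibitor does to M2 cells. No member was called lower or higher by limma, with 10.2% of tested genes lower and 10.6% higher, and 1 member, Mki67, had an unadjusted p under 0.05. The median difference was -0.03, beside 0.00 over all tested genes, and 25 of 47 were below zero. The 95% confidence intervals reached from -0.98 to 1.14 at the widest and lay within 1 log2 unit of zero for 44 of 47 members, so a 2-fold change was outside the interval for those 44. This comparison and that of nutlin-3a used the same M2 arrays. With the replicate number as a block 2 members were called, Mki67 higher (0.62, adjusted p = 0.0184) and Incenp lower (-0.29, adjusted p = 0.0228). Without replicate 2 of any group the count was also 2.

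**Figure D3:**
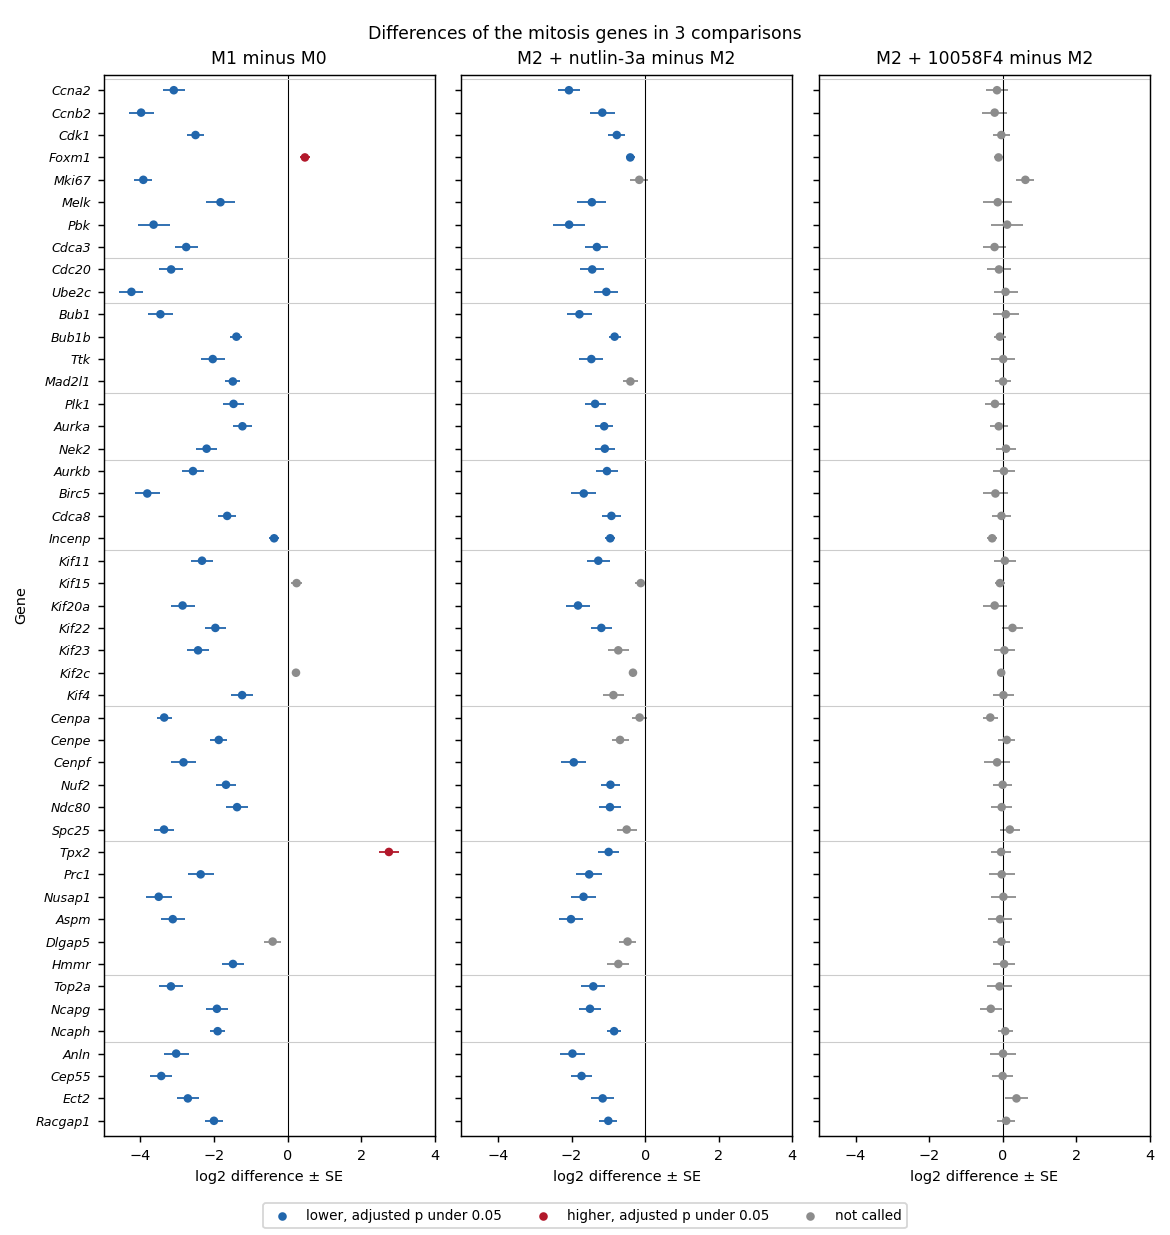
Log2 differences with their standard errors for the 47 members (rows) in M1 minus M0, nutlin-3a minus M2 and 10058F4 minus M2; blue points were called lower, red higher and grey not called at an adjusted p under 0.05. The left panel has 42 blue and 2 red points, the middle 36 blue and the right none.

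Among the regulators of mitotic entry, 7 of 8 fell in M1 (median -2.93) and 7 of 8 fell with nutlin-3a (median -1.24). Pbk, a kinase active in mitosis, and Ccnb2, cyclin B2 that binds CDK1, are given on every array (log2 expression, replicates 1 to 3). Pbk read 7.08, 9.04 and 8.26 in M0, 4.42, 3.91 and 5.13 in M1, 7.61, 8.29 and 7.67 in M2, 5.45, 6.34 and 5.57 with nutlin-3a and 7.74, 8.51 and 7.68 with 10058F4. Ccnb2 read 7.30, 8.62 and 8.11 in M0, 4.16, 3.40 and 4.52 in M1, 8.13, 8.71 and 8.14 in M2, 6.89, 7.64 and 6.96 with nutlin-3a and 7.91, 8.49 and 7.93 with 10058F4. For both genes all M1 arrays were below all nutlin-3a arrays, which were below all arrays of the other groups except that M0 replicate 1 of Ccnb2 lay among the nutlin-3a values. Pbk had log2 differences of -3.64 (SE 0.43, adjusted p = 3.47e-06) in M1 against M0, -2.07 (SE 0.43, adjusted p = 0.0057) with nutlin-3a and 0.12 (SE 0.43, adjusted p = 0.886) with 10058F4. Ccnb2 had log2 differences of -3.98 (SE 0.34, adjusted p = 9.69e-08) in M1 against M0, -1.16 (SE 0.34, adjusted p = 0.0325) with nutlin-3a and -0.22 (SE 0.34, adjusted p = 0.72) with 10058F4. Some M1 arrays of both genes were below the 40th percentile, so the M1 differences are not exact sizes.

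The other regulators that fell in both comparisons were Ccna2, cyclin A2 (-3.09 (SE 0.31) in M1 and -2.07 (SE 0.31) with nutlin-3a), Cdk1 itself (-2.50 (SE 0.24) and -0.77 (SE 0.24)), the kinase Melk (-1.82 (SE 0.39) and -1.45 (SE 0.39)) and Cdca3, which helps remove the CDK1 inhibitor WEE1 (-2.76 (SE 0.31) and -1.31 (SE 0.31)). The remaining pair was Mki67 and Foxm1. Mki67 encodes Ki-67, the protein that coats mitotic chromosomes and is the usual stain for dividing cells. Mki67 read 8.38, 9.71 and 9.18 in M0, 5.05, 5.31 and 5.14 in M1, 9.40, 9.94 and 9.51 in M2, 9.37, 9.61 and 9.39 with nutlin-3a and 10.14, 10.40 and 10.16 with 10058F4. M1 arrays lay far below all others, and nutlin-3a arrays overlapped the M2 arrays. Mki67 had log2 differences of -3.92 (SE 0.24, adjusted p = 3.05e-09) in M1 against M0, -0.16 (SE 0.24, adjusted p = 0.721) with nutlin-3a and 0.62 (SE 0.24, adjusted p = 0.0904) with 10058F4. The 10058F4 arrays of Mki67 were above all M2 arrays. Foxm1, the transcription factor of these genes, was slightly higher in M1 by 0.47 (SE 0.13, adjusted p = 0.00398) and lower with nutlin-3a, with -0.40 (SE 0.13, adjusted p = 0.0437). Its 3 tested probe sets disagreed in M1, with differences of 0.47, 0.23 and -0.40, each called, so its direction in M1 depends on the probe set. The call of Foxm1 with nutlin-3a was lost under 8 alternatives.

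Both APC/C partners in the list fell in M1 (median -3.71) and with nutlin-3a (median -1.25). Ube2c is the enzyme that hands ubiquitin to the APC/C, and Cdc20 is the activator that the checkpoint restrains. Ube2c read 7.65, 9.09 and 8.54 in M0, 4.20, 3.85 and 4.50 in M1, 8.35, 8.96 and 8.52 in M2, 7.21, 8.08 and 7.38 with nutlin-3a and 8.40, 9.12 and 8.54 with 10058F4. Cdc20 read 7.07, 8.49 and 7.96 in M0, 4.82, 4.15 and 5.06 in M1, 7.85, 8.31 and 7.98 in M2, 6.28, 7.10 and 6.44 with nutlin-3a and 7.68, 8.27 and 7.89 with 10058F4. M1 arrays of both genes were at least 1 log2 unit below the nutlin-3a arrays, and the nutlin-3a arrays were below all M2 arrays, while 10058F4 and M2 overlapped. Ube2c had log2 differences of -4.25 (SE 0.33, adjusted p = 3.27e-08) in M1 against M0, -1.05 (SE 0.33, adjusted p = 0.0431) with nutlin-3a and 0.08 (SE 0.33, adjusted p = 0.904) with 10058F4. Cdc20 had log2 differences of -3.17 (SE 0.32, adjusted p = 7.04e-07) in M1 against M0, -1.44 (SE 0.32, adjusted p = 0.00854) with nutlin-3a and -0.10 (SE 0.32, adjusted p = 0.875) with 10058F4. The limma call of Ube2c with nutlin-3a was lost under 6 alternatives, with adjusted p = 0.14 without M2 replicate 2 and 0.149 without nutlin-3a replicate 1.

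All 4 spindle checkpoint genes fell in M1 (median -1.76) and 3 of 4 with nutlin-3a (median -1.15). Bub1 and Ttk are the kinases that start the checkpoint signal at unattached kinetochores. Bub1 read 6.63, 8.33 and 7.60 in M0, 3.70, 4.33 and 4.16 in M1, 7.11, 7.84 and 7.15 in M2, 5.42, 5.88 and 5.43 with nutlin-3a and 7.19, 7.89 and 7.28 with 10058F4. Ttk read 5.33, 6.76 and 6.40 in M0, 4.44, 4.30 and 3.65 in M1, 5.88, 6.63 and 5.76 in M2, 4.55, 4.74 and 4.59 with nutlin-3a and 5.85, 6.49 and 5.98 with 10058F4. In both genes the nutlin-3a arrays lay between those of M1 and those of M2, without overlap. Bub1 had log2 differences of -3.46 (SE 0.35, adjusted p = 5.53e-07) in M1 against M0, -1.79 (SE 0.35, adjusted p = 0.00334) with nutlin-3a and 0.09 (SE 0.35, adjusted p = 0.9) with 10058F4. Ttk had log2 differences of -2.04 (SE 0.33, adjusted p = 6.37e-05) in M1 against M0, -1.46 (SE 0.33, adjusted p = 0.00794) with nutlin-3a and 0.01 (SE 0.33, adjusted p = 0.984) with 10058F4. Bub1b, the BubR1 inhibitor of CDC20, had -1.39 (SE 0.16) in M1 and -0.83 (SE 0.16) with nutlin-3a. Mad2l1, the MAD2 protein that binds CDC20, had -1.49 (SE 0.21) in M1 and -0.40 (SE 0.21, adjusted p = 0.226) with nutlin-3a, which was not called.

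The 3 mitotic kinases fell in M1 (median -1.47) and with nutlin-3a (median -1.11), and the differences of Plk1 and of Aurka were near each other in both comparisons. Plk1 drives mitotic entry and spindle assembly, and Nek2 separates the centrosomes. Plk1 read 6.41, 7.81 and 7.10 in M0, 5.85, 5.82 and 5.24 in M1, 7.06, 7.62 and 7.08 in M2, 5.85, 5.89 and 5.94 with nutlin-3a and 6.80, 7.38 and 6.95 with 10058F4. Nek2 read 5.63, 7.00 and 6.43 in M0, 3.87, 4.22 and 4.35 in M1, 6.22, 6.78 and 6.27 in M2, 5.25, 5.53 and 5.20 with nutlin-3a and 6.28, 6.94 and 6.32 with 10058F4. M1 replicate 1 of Plk1 reached the lowest nutlin-3a array, whereas the M1 arrays of Nek2 lay below all nutlin-3a arrays. Plk1 had log2 differences of -1.47 (SE 0.28, adjusted p = 0.000332) in M1 against M0, -1.36 (SE 0.28, adjusted p = 0.00534) with nutlin-3a and -0.21 (SE 0.28, adjusted p = 0.671) with 10058F4. Nek2 had log2 differences of -2.20 (SE 0.28, adjusted p = 6.81e-06) in M1 against M0, -1.10 (SE 0.28, adjusted p = 0.0175) with nutlin-3a and 0.09 (SE 0.28, adjusted p = 0.867) with 10058F4. Aurka, the Aurora kinase of the spindle poles, had -1.23 (SE 0.25) in M1 and -1.11 (SE 0.25) with nutlin-3a.

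The chromosomal passenger complex, which corrects faulty attachments and then guides cytokinesis, had all 4 members lower in M1 (median -2.11) and all 4 with nutlin-3a (median -0.99). Birc5 is survivin, its targeting subunit, and Aurkb its kinase. Birc5 read 7.02, 8.65 and 8.01 in M0, 3.60, 4.33 and 4.30 in M1, 7.70, 8.17 and 7.73 in M2, 5.85, 6.67 and 6.08 with nutlin-3a and 7.43, 8.03 and 7.54 with 10058F4. Aurkb read 6.41, 7.65 and 7.08 in M0, 5.14, 4.19 and 4.09 in M1, 6.76, 7.12 and 6.76 in M2, 5.71, 6.15 and 5.66 with nutlin-3a and 6.78, 7.18 and 6.79 with 10058F4. All nutlin-3a arrays were above all M1 arrays and below all M2 arrays in both genes. Birc5 had log2 differences of -3.82 (SE 0.34, adjusted p = 1.74e-07) in M1 against M0, -1.67 (SE 0.34, adjusted p = 0.0049) with nutlin-3a and -0.20 (SE 0.34, adjusted p = 0.751) with 10058F4. Aurkb had log2 differences of -2.57 (SE 0.30, adjusted p = 2.35e-06) in M1 against M0, -1.04 (SE 0.30, adjusted p = 0.0298) with nutlin-3a and 0.04 (SE 0.30, adjusted p = 0.953) with 10058F4. Cdca8, borealin, had -1.64 (SE 0.25) in M1 and -0.92 (SE 0.25) with nutlin-3a. Among members called lower in both comparisons, only the scaffold Incenp fell more with nutlin-3a than in M1 by the test of the difference between responses. Incenp read 9.27, 9.84 and 9.58 in M0, 9.12, 9.37 and 9.10 in M1, 9.26, 9.44 and 9.31 in M2, 8.29, 8.50 and 8.37 with nutlin-3a and 8.95, 9.30 and 8.91 with 10058F4. Its nutlin-3a arrays lay below all others, and its M1 and M0 arrays overlapped. Incenp had log2 differences of -0.37 (SE 0.14, adjusted p = 0.0259) in M1 against M0, -0.95 (SE 0.14, adjusted p = 0.000389) with nutlin-3a and -0.29 (SE 0.14, adjusted p = 0.165) with 10058F4. The call of Incenp in M1 was lost under 9 alternatives, among them without M0 replicate 2 (-0.23, adjusted p = 0.143), without M0 replicate 3 (-0.36, adjusted p = 0.0594) and after median centring (-0.04, adjusted p = 0.766).

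Of 7 kinesins, the motors of the spindle, 5 fell in M1 (median -1.96) and 3 with nutlin-3a (median -0.86). Kif20a works in cytokinesis and Kif11 pushes the spindle poles apart. Kif20a read 5.67, 7.26 and 6.47 in M0, 3.36, 3.85 and 3.61 in M1, 6.31, 6.98 and 6.41 in M2, 4.33, 5.18 and 4.72 with nutlin-3a and 6.09, 6.61 and 6.34 with 10058F4. Kif11 read 5.52, 7.04 and 6.37 in M0, 4.06, 3.91 and 3.98 in M1, 5.76, 6.38 and 5.83 in M2, 4.68, 5.22 and 4.25 with nutlin-3a and 5.96, 6.18 and 6.0 with 10058F4. M1 arrays were lowest and nutlin-3a arrays next in both genes, without overlap with M2. Kif20a had log2 differences of -2.86 (SE 0.32, adjusted p = 2.13e-06) in M1 against M0, -1.83 (SE 0.32, adjusted p = 0.00195) with nutlin-3a and -0.22 (SE 0.32, adjusted p = 0.706) with 10058F4. Kif11 had log2 differences of -2.33 (SE 0.31, adjusted p = 9.78e-06) in M1 against M0, -1.27 (SE 0.31, adjusted p = 0.0126) with nutlin-3a and 0.06 (SE 0.31, adjusted p = 0.921) with 10058F4.

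Kif22, which moves chromosome arms, fell in both comparisons (-1.96 (SE 0.29) and -1.19 (SE 0.29)). Kif23, a part of centralspindlin, and the chromosome motor Kif4 fell in M1 (-2.43 (SE 0.29) and -1.24 (SE 0.29)) and had -0.73 (SE 0.29, adjusted p = 0.106) and -0.86 (SE 0.29, adjusted p = 0.0594) with nutlin-3a. Kif15, which backs up Kif11, and Kif2c, which takes microtubule ends apart, were called in neither comparison, with 0.24 (SE 0.15, adjusted p = 0.147) and 0.23 (SE 0.11, adjusted p = 0.0826) in M1. The 3 other tested probe sets of Kif2c had -2.12, -0.76 and 0.08 in M1 and -1.55, -0.95 and -0.05 with nutlin-3a, so the value of Kif2c rests on the probe set. Kif15 had 1 probe set.

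All 6 centromere and kinetochore genes fell in M1 (median -2.35), and 3 of 6 with nutlin-3a (median -0.81). Cenpf is a large outer kinetochore protein, and Spc25 is a subunit of the NDC80 complex that grips microtubules. Cenpf read 5.44, 7.06 and 6.53 in M0, 3.76, 2.84 and 3.95 in M1, 6.26, 6.69 and 6.41 in M2, 4.26, 4.62 and 4.65 with nutlin-3a and 6.21, 6.63 and 6.06 with 10058F4. Spc25 read 7.09, 8.46 and 7.93 in M0, 4.86, 4.24 and 4.31 in M1, 8.03, 8.53 and 8.09 in M2, 7.57, 7.94 and 7.63 with nutlin-3a and 8.28, 8.68 and 8.29 with 10058F4. Cenpf was low in both M1 and nutlin-3a, whereas the nutlin-3a arrays of Spc25 lay only just below those of M2. Cenpf had log2 differences of -2.83 (SE 0.34, adjusted p = 4.32e-06) in M1 against M0, -1.94 (SE 0.34, adjusted p = 0.00192) with nutlin-3a and -0.15 (SE 0.34, adjusted p = 0.816) with 10058F4. Spc25 had log2 differences of -3.36 (SE 0.27, adjusted p = 6.32e-08) in M1 against M0, -0.50 (SE 0.27, adjusted p = 0.249) with nutlin-3a and 0.20 (SE 0.27, adjusted p = 0.686) with 10058F4. Another probe set of Spc25 had 0.15 in M1 and -0.17 with nutlin-3a, neither called.

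Cenpa is the histone H3 variant that marks centromeres. Cenpa read 9.49, 9.87 and 9.72 in M0, 5.79, 6.87 and 6.35 in M1, 8.97, 9.30 and 9.22 in M2, 8.82, 9.16 and 9.06 with nutlin-3a and 8.62, 9.04 and 8.82 with 10058F4. The M1 arrays were far below all others, and the nutlin-3a arrays overlapped those of M2. Cenpa had log2 differences of -3.36 (SE 0.21, adjusted p = 3.14e-09) in M1 against M0, -0.15 (SE 0.21, adjusted p = 0.687) with nutlin-3a and -0.34 (SE 0.21, adjusted p = 0.295) with 10058F4. Another tested probe set of Cenpa had -2.50 in M1 and -0.10 with nutlin-3a. Nuf2 and Ndc80, the other members of the NDC80 complex, fell in both (-1.68 (SE 0.26) and -1.37 (SE 0.29) in M1, -0.94 (SE 0.26) and -0.96 (SE 0.29) with nutlin-3a). Cenpe, the kinetochore motor, had -1.87 (SE 0.23) in M1 and -0.68 (SE 0.23, adjusted p = 0.062) with nutlin-3a.

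Among 6 spindle microtubule proteins 4 fell and 1 rose in M1 (median -1.92), and 4 fell with nutlin-3a (median -1.26). Aspm focuses the spindle poles and Nusap1 bundles microtubules near chromosomes. Aspm read 5.87, 7.34 and 6.92 in M0, 3.52, 3.14 and 4.10 in M1, 6.49, 6.97 and 6.73 in M2, 4.55, 4.94 and 4.65 with nutlin-3a and 6.48, 7.16 and 6.33 with 10058F4. Nusap1 read 7.41, 9.0 and 8.36 in M0, 5.16, 4.64 and 4.46 in M1, 7.89, 8.45 and 8.13 in M2, 6.03, 6.91 and 6.5 with nutlin-3a and 7.98, 8.68 and 7.87 with 10058F4. Both were lowest in M1 and next lowest with nutlin-3a, without overlap. Aspm had log2 differences of -3.12 (SE 0.33, adjusted p = 9.85e-07) in M1 against M0, -2.02 (SE 0.33, adjusted p = 0.00106) with nutlin-3a and -0.07 (SE 0.33, adjusted p = 0.913) with 10058F4. Nusap1 had log2 differences of -3.50 (SE 0.35, adjusted p = 5.2e-07) in M1 against M0, -1.68 (SE 0.35, adjusted p = 0.00533) with nutlin-3a and 0.02 (SE 0.35, adjusted p = 0.98) with 10058F4. Prc1, which bundles the central spindle, also fell in both (-2.36 (SE 0.35) and -1.52 (SE 0.35)), and Hmmr, a spindle protein, fell in M1 (-1.49 (SE 0.30)) and had -0.73 (SE 0.30, adjusted p = 0.121) with nutlin-3a. Dlgap5, which steadies spindle fibres at chromosomes, was called in neither (-0.41 (SE 0.23, adjusted p = 0.119) and -0.48 (SE 0.23, adjusted p = 0.18)).

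Tpx2, which switches on Aurora A on the spindle, was the member that rose clearly in M1. Tpx2 read 6.02, 7.18 and 6.90 in M0, 9.54, 9.06 and 9.75 in M1, 6.35, 6.93 and 6.70 in M2, 5.49, 6.05 and 5.46 with nutlin-3a and 6.22, 6.82 and 6.81 with 10058F4. All M1 arrays were above every other array, and the nutlin-3a arrays were the lowest group, below all M2 arrays. Tpx2 had log2 differences of 2.75 (SE 0.28, adjusted p = 7.03e-07) in M1 against M0, -0.99 (SE 0.28, adjusted p = 0.0295) with nutlin-3a and -0.04 (SE 0.28, adjusted p = 0.94) with 10058F4. Tpx2 was 6.75-fold higher in M1, and all 4 of its tested probe sets were called higher there (2.75, 0.68, 0.61 and 0.86). Its value over 17 alternatives was 1.23 to 3.19 in M1, and the call with nutlin-3a was lost under 4, including without M2 replicate 2 and without nutlin-3a replicate 1.

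The 3 genes of chromosome structure fell in M1 (median -1.92) and with nutlin-3a (median -1.41). Top2a untangles sister DNA, and Ncapg is a subunit of condensin. Top2a read 8.03, 9.64 and 9.02 in M0, 6.05, 5.54 and 5.58 in M1, 8.73, 9.19 and 8.58 in M2, 7.11, 7.82 and 7.34 with nutlin-3a and 8.62, 9.14 and 8.47 with 10058F4. Ncapg read 5.51, 6.82 and 6.31 in M0, 4.36, 4.45 and 4.06 in M1, 6.31, 6.78 and 5.85 in M2, 4.81, 4.91 and 4.71 with nutlin-3a and 5.60, 6.40 and 5.96 with 10058F4. The nutlin-3a arrays of both lay between M1 and M2 without overlap. Top2a had log2 differences of -3.17 (SE 0.33, adjusted p = 7.93e-07) in M1 against M0, -1.41 (SE 0.33, adjusted p = 0.0104) with nutlin-3a and -0.09 (SE 0.33, adjusted p = 0.895) with 10058F4. Ncapg had log2 differences of -1.92 (SE 0.29, adjusted p = 4.08e-05) in M1 against M0, -1.50 (SE 0.29, adjusted p = 0.00355) with nutlin-3a and -0.32 (SE 0.29, adjusted p = 0.496) with 10058F4. The other condensin subunit, Ncaph, had -1.90 (SE 0.20) in M1 and -0.84 (SE 0.20) with nutlin-3a. Another tested probe set of Top2a had -0.42 in M1, not called (adjusted p = 0.0565), and with probe sets free of cross-match suffixes Top2a had -0.38 with nutlin-3a, also not called (adjusted p = 0.195).

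All 4 cytokinesis genes fell in M1 (median -2.87) and with nutlin-3a (median -1.44), and none was called with 10058F4. Cep55 builds the site of final abscission, and Anln is anillin, the scaffold of the contractile ring. Cep55 read 6.70, 8.19 and 7.64 in M0, 4.17, 4.0 and 4.06 in M1, 7.29, 7.94 and 7.41 in M2, 5.60, 6.02 and 5.84 with nutlin-3a and 7.37, 7.97 and 7.31 with 10058F4. Anln read 6.45, 8.19 and 7.57 in M0, 4.69, 4.18 and 4.25 in M1, 7.07, 7.78 and 7.19 in M2, 5.16, 5.73 and 5.22 with nutlin-3a and 7.11, 7.73 and 7.23 with 10058F4. M1 was lowest and nutlin-3a next in both, without overlap with the other groups. Cep55 had log2 differences of -3.44 (SE 0.29, adjusted p = 1.03e-07) in M1 against M0, -1.73 (SE 0.29, adjusted p = 0.00138) with nutlin-3a and 0.00 (SE 0.29, adjusted p = 1) with 10058F4. Anln had log2 differences of -3.03 (SE 0.34, adjusted p = 1.96e-06) in M1 against M0, -1.98 (SE 0.34, adjusted p = 0.00156) with nutlin-3a and 0.01 (SE 0.34, adjusted p = 0.99) with 10058F4. Ect2, which activates RhoA at the ring, had -2.71 (SE 0.30) in M1 and -1.15 (SE 0.30) with nutlin-3a, and Racgap1, its centralspindlin partner, had -2.0 (SE 0.24) and -1.0 (SE 0.24).

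**Figure D4:**
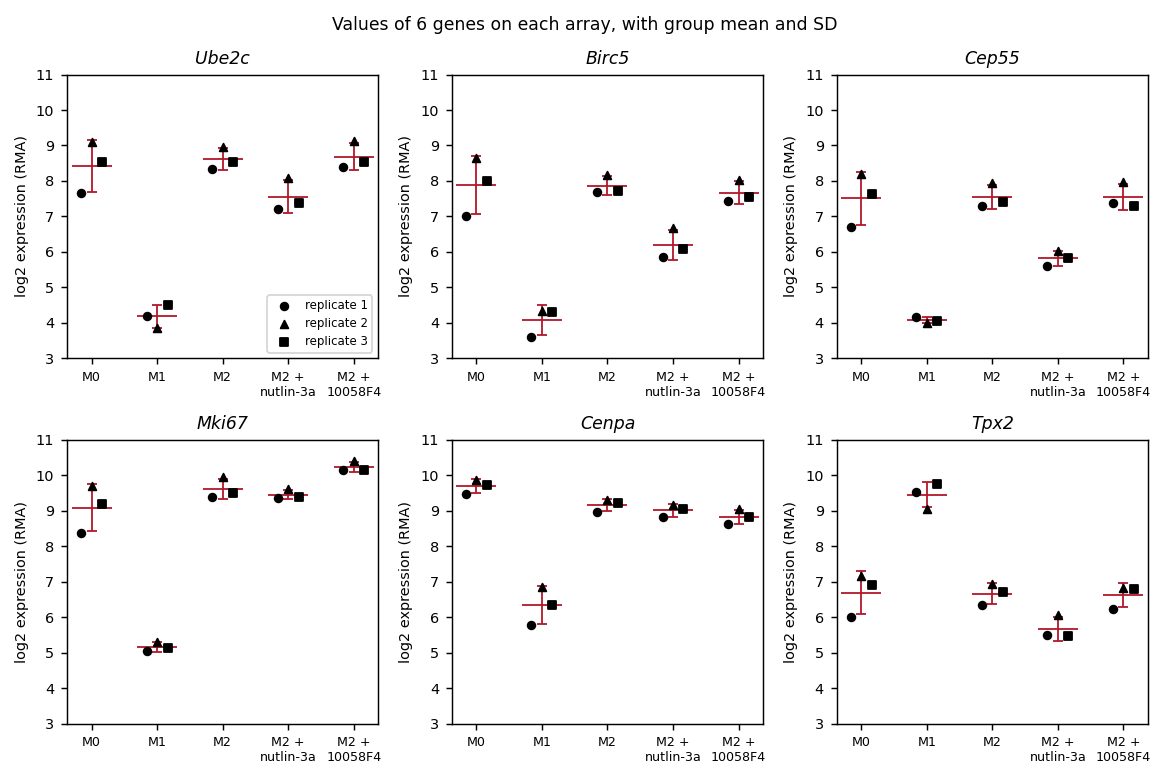
Log2 expression of 6 genes on each array, with the replicate number as the symbol and the group mean with its SD in red; Mki67, Cenpa and Tpx2 were picked after their values were seen. Ube2c, Birc5 and Cep55 fall in M1 and with nutlin-3a, Mki67 and Cenpa have nutlin-3a arrays that overlap those of M2, and Tpx2 is highest in M1.

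The falls in M1 and with nutlin-3a were compared gene by gene, in the fit of 15 arrays, and the responses share no array. A total of 34 members fell in both, as did 2.61% of all tested genes, and 8 fell in M1 and were not called with nutlin-3a, as did 30.6% of tested genes. Another 2 fell with nutlin-3a but not in M1 (Foxm1 and Tpx2), and 3 were called in neither. Of all tested genes 5.85% were lower with nutlin-3a, whatever their call in M1. How many of all tested genes had either of these last patterns was not counted, so neither count is set apart from the rest of the genes. By the test of the difference between the responses, 24 members were lower and 4 higher in the M1 response, with 36.9% of tested genes lower and 28.5% higher, and the median was -1.05, beside -0.03 over all tested genes. Median centring moved the median of all tested genes to 0.36 and their split from 5052 lower and 3908 higher to 3136 and 7129, and gave 19 members lower and 5 higher with a median of -0.67. Of the 34 that fell in both, the M1 fall was larger by that test in 18, the nutlin-3a fall larger in 1, Incenp, and the difference was not called in 15, of which 7 were called lower with the replicate number as a block. Members called were, among others, Tpx2 (3.75 (SE 0.40, adjusted p = 1.63e-06)), Mki67 (-3.76 (SE 0.34, adjusted p = 3.38e-07)), Cenpa (-3.20 (SE 0.29, adjusted p = 3.62e-07)), Ube2c (-3.19 (SE 0.46, adjusted p = 3.42e-05)) and Spc25 (-2.86 (SE 0.39, adjusted p = 1.89e-05)), the last pair with M1 arrays below the 40th percentile. Plk1, at -0.11 (SE 0.40, adjusted p = 0.822), and Aurka, at -0.11 (SE 0.35, adjusted p = 0.788), were among the 15. Of those 15, Aspm, Cenpf, Kif20a, Ncapg and Ttk had every M1 array below the 40th percentile, and Anln, Melk and Nuf2 had some. The M1 falls of these genes are not exact sizes, so equal responses cannot be read from the missing call. Without M0 replicate 1, the low M0 array, 40 members were called, and without any other array 23 or more. The responses were measured from different starting cells, M0 and M2.

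**Figure D5:**
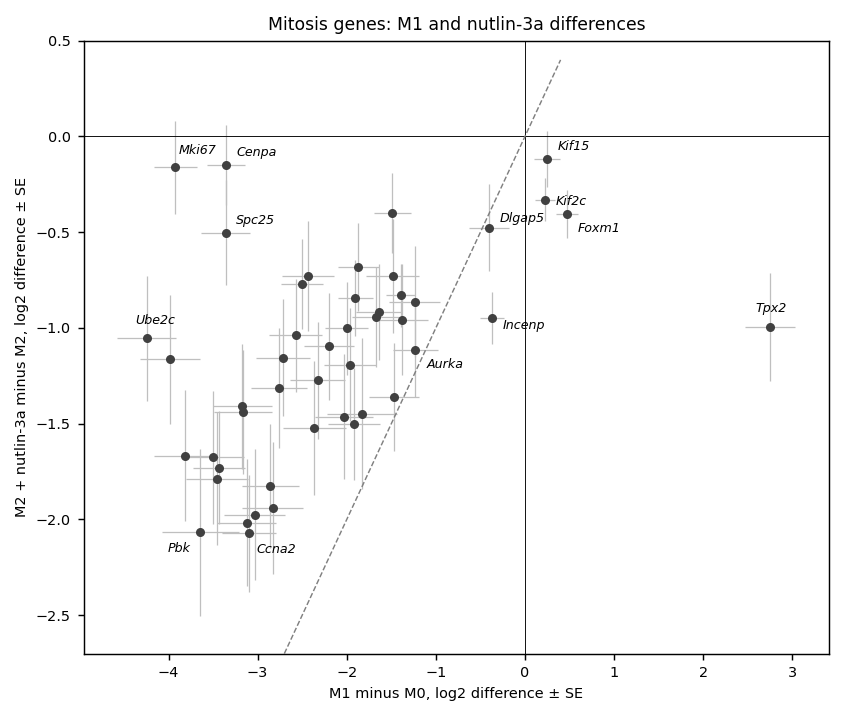
Each point is a member, with its log2 difference in M1 minus M0 on the x axis and in nutlin-3a minus M2 on the y axis; the dashed line marks equal differences. Most points lie at the lower left above the line, where the M1 fall is larger, and Tpx2 stands alone at the right.

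Across the 47 members the differences in M1 and with nutlin-3a had a Pearson r of 0.443 and a Spearman rho of 0.492, and 0.299 and 0.378 over the 42 members that fell in M1. These values are across genes, which share arrays and are not replicates. The M1 response was also set against the 10058F4 response, which uses different arrays. There 41 members were lower and 2 higher in the M1 response (35.3% and 27.6% of tested genes), with a median of -2.34. After median centring 39 members were lower and 4 higher, and 3218 and 6785 of all tested genes.

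M2 against M0, the effect of IL-4 with IL-13, called no member by limma, with 18.4% of tested genes lower and 12.7% higher (2518 and 1735 genes, and 1791 and 2801 after median centring), and 3 members had an unadjusted p under 0.05 (differences of 0.53 for Mki67, 0.28 for Foxm1 and -0.53 for Cenpa). The median was -0.06. The M0 arrays were widely spread: same-numbered M2 minus M0 medians were 0.54, -0.37 and -0.28, so the sign turned with M0 replicate 1. Without that array 5 members were called lower (Ect2, Incenp, Kif22, Kif23 and Ncaph). With the replicate number as a block 3 were called: Cenpa lower (-0.53, adjusted p = 0.00395), Incenp lower (-0.23, adjusted p = 0.0491) and Mki67 higher (0.53, adjusted p = 0.0292).

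M1 against M2, which shares its M2 arrays with the agents' comparisons, called 41 members lower and 1, Tpx2, higher, with 36.5% of tested genes lower and 28.1% higher, and the median was -2.19. Median centring turned the split of all tested genes from 5005 lower and 3855 higher to 3644 and 6896, and gave 41 members lower and 2 higher. Mki67, whose M1 arrays were all above the 40th percentile, had a difference of -4.45. Ube2c and Ccnb2 had -4.43 and -4.30 with M1 arrays below it, so their order is not measured. Foxm1, Incenp, Kif15, Kif2c and Dlgap5 were not called. Without any 1 array of these groups the count was 42 again.

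Nutlin-3a against 10058F4, M2 cells given either agent, called 27 members lower and none higher, with 2.72% of tested genes lower and 4.24% higher (373 and 581 genes, and 543 and 434 after median centring), and 43 had an unadjusted p under 0.05. The median was -1.09, and 46 of 47 were below zero, the exception being Cenpa at 0.19 (adjusted p = 0.710). Pbk (-2.19), Anln (-1.99) and Aspm (-1.94) fell most. The count was 15 without nutlin-3a replicate 1, 14 without nutlin-3a replicate 3 and 13 without 10058F4 replicate 2. With the replicate number as a block 38 were called, the added ones including Ube2c (adjusted p = 0.0138), Cdk1 (0.0312) and Mki67 (0.0118).

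The other genes of cell division were taken from lists that share no gene with the members. Of 64 tested further mitosis genes 47 fell and 3 rose in M1 against M0 (median -1.06), led by Stmn1, which destabilises microtubules (-4.76, SE 0.24), the condensin II subunit Ncapg2 (-3.57, SE 0.38), the kinesin Kif20b (-3.09, SE 0.30) and the APC/C inhibitor Fbxo5 (-2.80, SE 0.27). Zwint (0.61), Plk4 (0.54) and Cit (0.28) rose. With nutlin-3a 24 fell and 4 rose (median -0.43): Shcbp1 (-1.72, SE 0.31), the kinetochore scaffold Knl1 (-1.48, SE 0.32), Ska1 (-1.38, SE 0.39) and Depdc1a (-1.30, SE 0.37) fell, and Psrc1 (2.91, SE 0.14), Gtse1 (1.63, SE 0.17), the CDK1 inhibitor Wee1 (0.90, SE 0.25) and Zwint (0.40, SE 0.13) rose. Psrc1 and Gtse1 are known p53 targets. With 10058F4 1 of 64 fell, beside 10.2% of all tested genes, Psrc1 (-0.72, SE 0.14), and 4 rose, beside 10.6%: Wee1 (1.79, SE 0.25), Ncapd3 (0.59, SE 0.17), Hmgb2 (0.58, SE 0.19) and Zwint (0.46, SE 0.13). In M2 against M0 7 of 64 fell, beside 18.4% of all tested genes, and 1 rose, beside 12.7%, Psrc1 (1.30, SE 0.14). The shares of all tested genes were 39.1% lower and 33.6% higher in M1, and 5.85% and 9.56% with nutlin-3a.

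The core subunits of the APC/C, which are needed outside mitosis too, were listed apart. The list also held Fzr1, an activator and not a core subunit. Of 15 tested, 9 fell and 1 rose in M1 (median -0.26), beside 39.1% and 33.6% of all tested genes, the largest being Anapc15 at -1.37 (SE 0.10), with Cdc26 higher at 0.32 (SE 0.06). With nutlin-3a none fell and 1 rose, Cdc16 (0.32, SE 0.06), beside 5.85% and 9.56% of all tested genes, and the median was 0.05. With 10058F4 Fzr1, the CDH1 activator of late mitosis, fell (-0.38, SE 0.09) and Cdc16 rose (0.22, SE 0.06). That was 1 of 15 each way, beside 10.2% and 10.6% of all tested genes, and no core subunit was called lower.

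Genes of S phase, the step before mitosis, were mostly lower in M1. Of 30 tested, 27 fell and 1 rose in M1 (median -1.13), led by Rrm2 of the deoxynucleotide-making enzyme (-5.60, SE 0.40), thymidine kinase Tk1 (-3.48, SE 0.35), the helicase subunit Mcm6 (-3.37, SE 0.40) and the polymerase subunit Pola1 (-3.29, SE 0.19), with Pola2 higher (0.64, SE 0.12). With nutlin-3a 7 fell and none rose (median -0.33), among them Rrm2 (-1.86, SE 0.40) and the origin loader Cdc6 (-0.99, SE 0.29). The shares of all tested genes were 39.1% lower and 33.6% higher in M1, and 5.85% lower with nutlin-3a. In M2 against M0 9 of 30 fell, beside 18.4% of all tested genes, among them Cdc6 (-1.51, SE 0.29), and with 10058F4 2 of 30 fell, beside 10.2%, Rfc5 (-0.42, SE 0.11) and Fen1 (-0.33, SE 0.10). The medians of the mitosis members were -2.33, -1.10, -0.06 and -0.03 in the same 4 comparisons; the lists were not tested against each other.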

How the data were processed

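RNA was read on 15 one-colour arrays, 3 in each of 5 groups, and the titles gave each sample's group and replicate number. The authors deposited 1 log2 value per probe set and array. They used RMA, per the submitters' processing notes, of a version that no source used here names, and the log base was read from the values. RMA forces the probe values of arrays to one distribution before they are summarised, so a shift of most genes could be hidden. The deposited values per probe set did not share 1 exact distribution. Repeated quantile normalization moved the median of all tested genes in M1 against M0 from -0.005 to 0.076, with 4487 genes lower and 5184 higher.

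Of 45101 probe sets 34945 named 1 gene, 932 several, 9160 none and 64 were controls; 34741 of the gene IDs matched RefSeq (GRCm38.p6), from which symbols were taken. A gene was read from the probe set with the highest mean and tested where 3 or more arrays were above their own 40th percentile (13703 of 18193 genes). All comparisons were contrasts of limma's lmFit and eBayes on 15 arrays and 5 group means, with 10 residual and 3.86 prior degrees of freedom, Benjamini-Hochberg adjustment within a comparison and an adjusted p under 0.05. Having 3 arrays per group limits the precision.

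The members and lists were chosen with earlier results of these data known. In each of 10 roles the 2 members with the highest mean absolute difference in M1 against M0, nutlin-3a against M2 and 10058F4 against M2 are given on every array, members that went against their role are named, and up to 4 called genes per direction come from each comparison list.

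Replicate numbers recur in all groups. Across tested genes, same-numbered arrays' deviations from group means correlated with r of 0.232 to 0.424 for M0 and M2, 0.337 to 0.381 for M2 and nutlin-3a, 0.308 to 0.368 for M2 and 10058F4 and 0.341 to 0.408 for the agents, above the limit of 0.1 for pairing, and 0.055 to 0.263 for M0 and M1 and 0.063 to 0.148 for M1 and M2, not all above it.

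Alternatives were other filters, other probe set rules, repeated quantile normalization, median centring, fewer arrays, array weights, robust eBayes with a trend, the replicate block and each array left out; leaving out replicate 2 of every group was chosen after seeing the data. Software was limma 3.58.1 (R 4.3.3), and pandas 2.3.3 and matplotlib 3.10.9 under Python 3.11.15.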

Additional observations from a re-analysis of the deposited data

How the results depend on the processing

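The counts of members called kept their direction in M1 against M0, M1 against M2, nutlin-3a against M2 and the differences between responses under the alternatives run. Leaving out each array in turn gave 43 to 45 called in M1 against M0, 0 to 5 in M2 against M0, 42 to 42 in M1 against M2, 20 to 35 for nutlin-3a against M2, 0 to 0 for 10058F4 against M2, 13 to 23 for nutlin-3a against 10058F4, 23 to 40 for the M1 response minus the nutlin-3a response and 43 to 44 for the M1 response minus the 10058F4 response. In M2 against M0 the count of 0 became 1 with the mean of all probe sets, 1 with probe sets whose names lack the suffixes for possible cross-matches, 1 with only the arrays compared, 2 with array weights, 3 with the replicate block and 1 without replicate 2 of any group. For 10058F4 against M2 the count of 0 became 1 with only the arrays compared, 1 with array weights, 2 with the replicate block and 2 without replicate 2 of any group. For nutlin-3a against 10058F4 the count of 27 became 16 with suffix-free probe sets, where 36 members had a value, and 42 with only the arrays compared. The replicate block moved no other count by over 1.5 times: it gave 44 in M1 against M0 and 43 in M1 against M2, where the numbers did not pass the pairing check, and 35 in place of 28 for the M1 response minus the nutlin-3a response. Fitted on the 12 arrays of its groups alone, the last gave 22 lower and 4 higher. Reversed values came from other probe sets. Kif2c had -0.64 with the mean of all probe sets and -0.76 with suffix-free ones in M1 against M0, and -0.70 and -0.57 in the M1 response minus the 10058F4 response, all called. Spc25 with its suffix-free probe set had 0.15 in M1 against M0, 0.18 in M1 against M2, 0.32 in the M1 response minus the nutlin-3a response and 0.16 in the M1 response minus the 10058F4 response, none called. The cause was not tested. Signal near the arrays' 40th percentile limits the size of the falls in M1. With nutlin-3a it may limit those of Kif11, Kif20a and Cenpf, which had 2 of 3 arrays above that percentile.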
